A study of Mus musculus with 54 samples.

Results

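The 10 Polycomb genes described here were Ezh2, Ezh1, Eed, Suz12, Jarid2, Mtf2, Rnf2, Pcgf6, Cbx7 and Kdm2b. They were taken by name from the 21938 protein-coding genes of the GENCODE release M21 annotation, and no measured value entered the rule. Their accessible regions were the 137 peaks, of the 113737 in the merged ATAC-seq list, centred 50 kb or less from a transcription start site (TSS) annotated for one of these genes. Of these 137 peaks, 24 were TSS peaks of the 10 genes (centre within 1 kb of an own TSS), 26 were TSS peaks of neighboring genes, and 87 were distal (centre more than 1 kb from every annotated TSS). No peak was in reach of more than 1 of the 10 genes.

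ATAC-seq cuts and tags open DNA with the Tn5 transposase, and the series asked how far open regulatory loci depend on the pluripotency factor OCT4 through the cell cycle. All 54 samples, in 24 groups, were ZHBTc4 mouse embryonic stem cells in which doxycycline (dox) shuts off endogenous Pou5f1, which encodes OCT4. The same cells carried lentiviral mCherry-OCT4-AID, driven at a low level by the constitutive PGK promoter and bearing 1 amino acid change acquired during cloning, the Tir1 ubiquitin ligase that lets auxin degrade this fusion, and the cell cycle reporter YPet-MD. The line was a sorted population chosen for loss of mCherry after auxin (indole-3-acetic acid, IAA). In the cell cycle groups (22 samples), cells had 26 hr of dox and either 500 nM IAA for 2 hr or none, and were sorted into EG1, LG1, S and SG2 (early G1, late G1, S, and late S with G2), with 3 samples per treatment in EG1, LG1 and S and 2 in SG2. In the washout groups (16 samples), cells had 31 hr of dox, with or without IAA for 2.5 hr and then 4.5 hr without it, and were sorted into the same 4 phases with 2 samples each. In the time course (16 samples), unsorted cells had 34 hr of dox and no IAA, or IAA for 30 min or 1, 2, 3, 4, 6 or 10 hr, with 2 samples each.

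The peak list pooled these samples and gave only the start and end of each region, so no value belonged to a sample, a phase or an IAA treatment, and no replicate error could be computed. Every comparison is therefore a description with no test. The background is the 15535 protein-coding genes that had a TSS peak, except for the share of genes with such a peak, which is over all 21938. Motifs, and the base composition of distal peaks, are set beside all 89795 distal peaks or, in TSS peaks, the 19525 TSS peaks of protein-coding genes. The stem cell genes Pou5f1, Sox2 and Nanog each had 1 TSS peak, with widths nearest to a TSS of 2335, 2301 and 254 bp. Library depth cannot be read from such a list and is unknown here.

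Polycomb proteins keep developmental genes silent in embryonic stem cells through 2 kinds of complex. Polycomb repressive complex 2 (PRC2) methylates histone H3 with EZH2 or its paralog EZH1, which need EED and SUZ12 to be active, and JARID2 and MTF2 help bring it to its targets. Polycomb repressive complex 1 (PRC1) ubiquitinates histone H2A through RNF2, which pairs with one of the PCGF proteins such as PCGF6. CBX7 reads the PRC2 mark for canonical PRC1, and KDM2B carries variant PRC1 to CpG-rich DNA.

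The sequence just before a TSS differed among these genes in how often it held the dinucleotide CG. The stretches below, from RefSeq GRCm38.p6, are the 120 bases before the most upstream TSS inside a TSS peak of the gene. They run 5′ to 3′ on the strand of the gene, lie in that peak and overlap no annotated exon. They are shown because they span the range of CG content, and capitals mark each CG.

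Ezh2, chr6:47595342-47595461, minus strand: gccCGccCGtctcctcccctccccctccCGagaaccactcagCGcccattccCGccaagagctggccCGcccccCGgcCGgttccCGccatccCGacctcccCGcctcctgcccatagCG
Ezh1, chr11:101226464-101226583, minus strand: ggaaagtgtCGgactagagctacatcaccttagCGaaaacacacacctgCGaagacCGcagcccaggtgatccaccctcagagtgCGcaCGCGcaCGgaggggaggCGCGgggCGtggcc
Suz12, chr11:79992986-79993105, plus strand: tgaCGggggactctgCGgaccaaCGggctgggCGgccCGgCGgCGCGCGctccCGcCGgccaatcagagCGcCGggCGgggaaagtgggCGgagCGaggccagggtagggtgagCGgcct
Mtf2, chr5:108065554-108065673, plus strand: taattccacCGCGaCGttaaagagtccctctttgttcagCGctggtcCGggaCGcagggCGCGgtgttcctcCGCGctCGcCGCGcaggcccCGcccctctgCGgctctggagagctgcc
Rnf2, chr1:151500956-151501075, minus strand: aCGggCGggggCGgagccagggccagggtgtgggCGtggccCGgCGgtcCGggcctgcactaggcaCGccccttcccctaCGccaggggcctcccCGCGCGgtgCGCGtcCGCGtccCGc
Kdm2b internal, chr5:122900356-122900475, minus strand: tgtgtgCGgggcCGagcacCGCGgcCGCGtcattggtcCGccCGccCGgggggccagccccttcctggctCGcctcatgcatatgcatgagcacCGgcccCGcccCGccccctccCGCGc
Cbx7 internal, chr15:79932769-79932888, minus strand: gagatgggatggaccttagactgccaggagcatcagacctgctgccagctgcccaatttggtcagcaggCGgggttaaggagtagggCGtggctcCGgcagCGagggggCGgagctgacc
Cbx7 upstream, chr15:79971120-79971239, minus strand: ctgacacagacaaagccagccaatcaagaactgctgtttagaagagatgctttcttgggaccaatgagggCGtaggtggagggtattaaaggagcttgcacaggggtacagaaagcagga

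Suz12 and Rnf2 had 17 CG each in these 120 bases, the Mtf2 start and the internal Kdm2b start had 15, Ezh2 had 12 and Ezh1 had 11. Starts not shown had 12 and 11 (Kdm2b), 10 (Pcgf6), 8 and 7 (Jarid2), 6 (Eed) and 1 (Cbx7). The internal Cbx7 start had 5, and the upstream Cbx7 start had 1. The GC content of the same stretches was 49.2% at the upstream Cbx7 start and 81.7% at Rnf2.

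All 10 Polycomb genes had at least 1 TSS peak, which 70.8% of protein-coding genes had. The width of the TSS peak nearest to a TSS had a median of 1306 bp over the 10 genes and 1172 bp over the 15535 genes. For Jarid2, Cbx7 and Kdm2b this peak was not the one at the reference TSS, that of the principal protein-coding transcript. When the 5′ end of the gene was its only TSS, 9 of the 10 genes had a TSS peak, Jarid2 being left out, and the medians were 1195 bp over these 9 and 1200 bp over the background. The peak was at least 1000 bp wide for 7 of 10 Polycomb genes and for 67.1% of the background, which is about the same share. Its centre lay downstream of the TSS in 9 of 10 genes, Jarid2 being the exception, and in 57.7% of the background.

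Among the PRC2 core genes, Ezh2, which encodes the main methyltransferase, had a single TSS peak of 1859 bp at chr6:47594086-47595944. Ezh1, the paralog, also had a single one, at chr11:101225915-101226724, and it was the narrower by far at 810 bp. The peak of Eed, the subunit that binds the methylated histone, spanned 1743 bp at chr7:89979934-89981676 and also held the start of E230029C05Rik, a noncoding gene on the opposite strand. Suz12, the scaffold subunit, had 1 peak of 1700 bp at chr11:79992372-79994071. Ezh2, Eed and Suz12 thus lay at the 92.5, 89.6 and 88.2 percentile of the background for width, and Ezh1 at the 20.2 percentile.

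Of the PRC2 accessory genes, Jarid2 had a broad peak of 1774 bp at chr13:44729641-44731414 over its reference TSS (that of its principal protein-coding transcript). A second peak of 963 bp at chr13:44733345-44734307 lay closest to any single Jarid2 TSS. The peak at the 5′ end of Mtf2, at chr5:108065252-108066290, was 1039 bp wide, close to the background median.

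Among the PRC1 genes, Rnf2, the catalytic subunit, had a peak of 1417 bp at chr1:151500009-151501425, and Pcgf6 had one of 1195 bp at chr19:47050042-47051236. Cbx7 had TSS peaks at starts far apart. Its reference TSS lay in a peak of 1829 bp at chr15:79931390-79933218, and its most upstream TSS lay in a peak of 806 bp at chr15:79970712-79971517. Kdm2b had 3 peaks over a TSS, and the one at its reference TSS was the narrowest. That peak was 631 bp wide at chr5:122989087-122989717 and did not reach the 2 most upstream starts, whereas internal starts lay in a peak of 1351 bp at chr5:122951372-122952722 and one of 1483 bp at chr5:122899584-122901066.

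**Figure D1:**
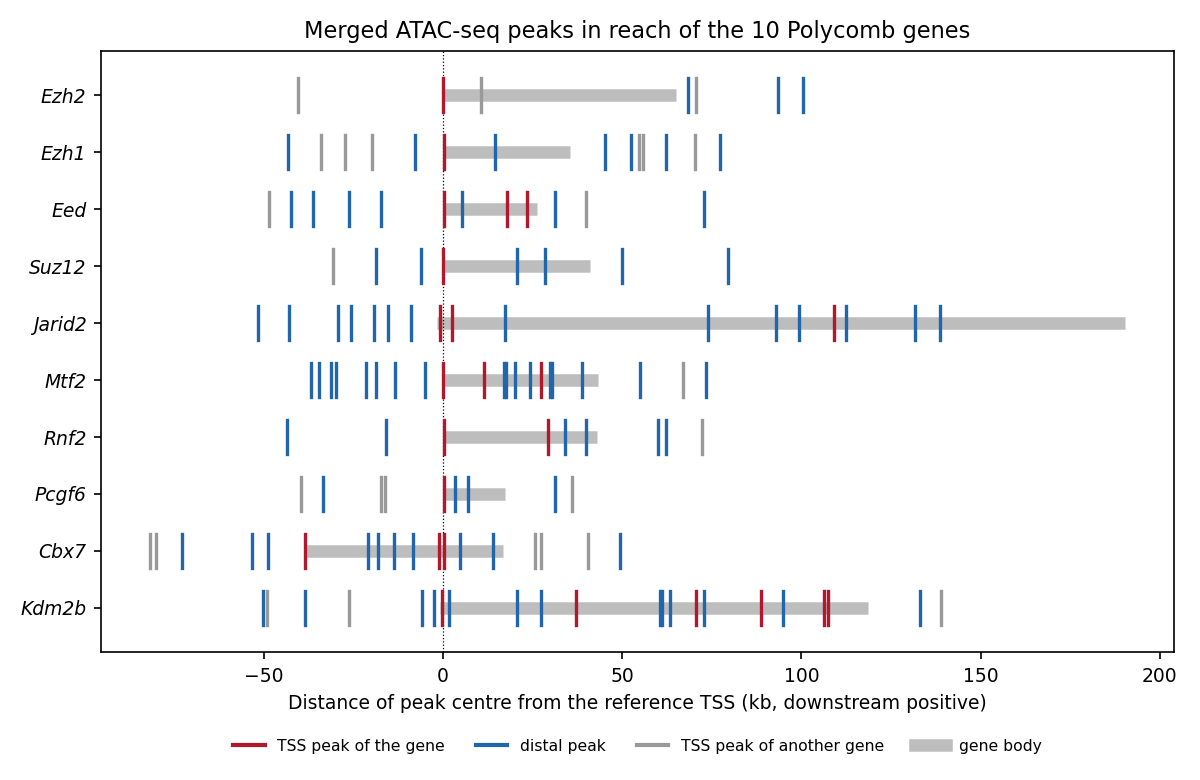
Merged ATAC-seq peaks in reach of each Polycomb gene, by distance of the peak centre from the reference TSS in kb, with downstream positive. Red lines are the 24 TSS peaks of the 10 genes, blue lines the 87 distal peaks, dark gray lines the 26 TSS peaks of other genes and light gray bars the gene bodies. The 17 distal peaks of Mtf2 stand on both sides of its start, those of Ezh2 lie beyond its 3′ end, and Jarid2 has no TSS peak of another gene in reach.

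At least 3 TSS peaks were counted for 5 of 10 Polycomb genes (Eed, Jarid2, Mtf2 and Cbx7 with 3, Kdm2b with 6) and for 6.94% of background genes. The Polycomb genes were annotated with more starts (4 to 19, median 9.5, against a median of 4), and among the 9281 background genes with at least 4 TSSs the share was 10.7%. Not all of these peaks covered a start. Of the 24 TSS peaks of the Polycomb genes 15 held an own TSS and 9 did not, being centred within 1 kb of one in an intron. At least 2 peaks that held an own TSS were found for Jarid2, Cbx7 and Kdm2b, 3 of 10 genes, and for 13.0% of the background. Conversely, 52 of the 103 annotated TSSs of the Polycomb genes lay inside a TSS peak of their gene (50.5%, Wilson 95% interval 41.0 to 59.9), against 47944 of 79967 in the background.

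The 15 TSS peaks with a start inside and the 9 without one did not overlap in CpG content. The ratio of observed to expected CpG, which is near 1 where CG has not been depleted, was 0.429 to 0.925 (median 0.809) in the 15 and 0.140 to 0.413 (median 0.231) in the 9. The lowest of the 15 was the upstream Cbx7 peak. The highest was that of Eed, followed by the internal Kdm2b peak at 0.924, which also had the highest GC content, 72.5%. The 9 were peaks in introns of Eed (2), Jarid2 (1), Mtf2 (2), Rnf2 (1) and Kdm2b (3), and they were 200 to 1230 bp wide. The background showed the same order with more overlap: the median ratio was 0.677 in 15778 TSS peaks with a start inside and 0.309 in 3747 without.

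At the TSS peak nearest to a start, 6 of the 10 Polycomb genes lay above the background median in GC content. The median GC content was 64.7% against 59.1% in the background, and the median CpG ratio was 0.848 against 0.686. Kdm2b (99.5 percentile for GC), Rnf2 (97.1) and Jarid2 (89.7) were at the GC-rich end. Cbx7, at 51.6% GC and the 12.1 percentile, and Mtf2, at 55.1% and the 26.0 percentile, had the lowest values, and Eed (42.9 percentile) and Pcgf6 (44.1) also lay below the background median. Mtf2 combined this low GC content with a CpG ratio of 0.789, above the background median. For Kdm2b, Jarid2 and Cbx7 the ranked peak was not the one at the reference TSS. Their peaks at the reference TSS had 62.8%, 69.1% and 57.2% GC.

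**Figure D2:**
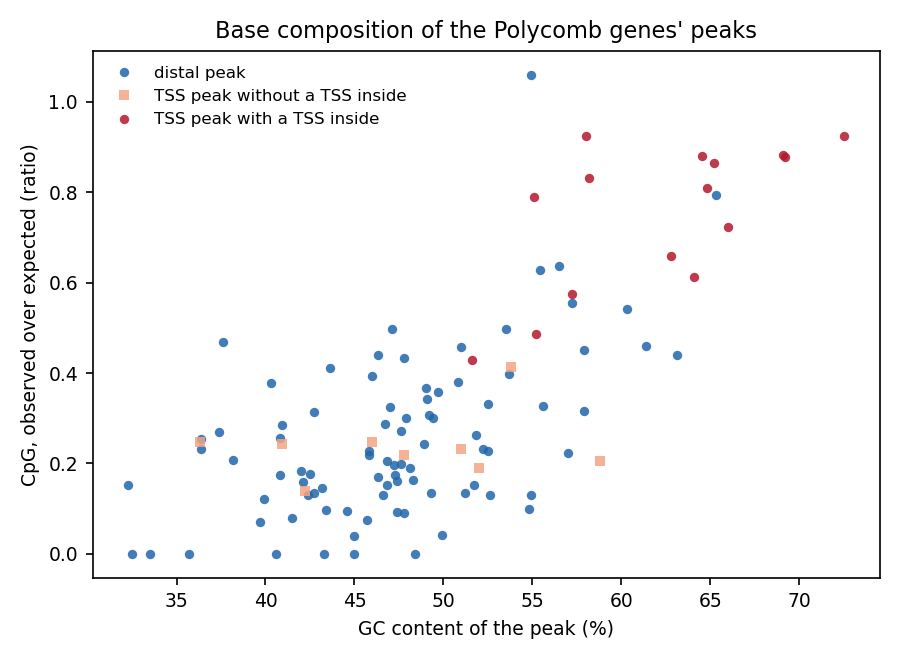
GC content in percent (horizontal axis) and observed over expected CpG (vertical axis) of each peak of the 10 Polycomb genes. Red circles are the 15 TSS peaks with a start inside, orange squares the 9 without one, and blue circles the 87 distal peaks. The red circles lie at ratios of 0.429 and above, the squares at 0.413 and below among the distal peaks.

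The 10 genes had 3 to 17 distal peaks each, with a median of 7, where background genes had a median of 5 (quartiles 3 and 8). Mtf2 had 17, Jarid2 14, Kdm2b 13 and Cbx7 10. Ezh1 and Eed had 7 each, Suz12 and Rnf2 had 6, Pcgf6 had 4 and Ezh2 had 3. At least 10 distal peaks were thus counted for 4 of 10 Polycomb genes, against 17.9% of the background and 20.9% of the genes with at least 4 TSSs. By role, the 4 PRC2 core genes had 3 to 7, the 2 PRC2 accessory genes 14 and 17, and the 4 PRC1 genes 4 to 13. The gap between core and accessory genes was not seen in the further PRC2 genes taken by name below. There, 2 core genes had a median of 7.5 and 4 accessory genes a median of 8.

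The stretch of genome searched also differed, since genes with starts far apart have a longer reach. The reach was 101 kb for Pcgf6 and 209 kb for Kdm2b. Per 100 kb of reach Mtf2 had 13.4 distal peaks, 3.19 times the density of its chromosome and at the 98.7 percentile of the background. Cbx7 followed with 7.21 (79.0 percentile), Jarid2 with 6.84 (74.6) and Kdm2b with 6.23 (70.9). By count of distal peaks alone, Cbx7, Jarid2 and Kdm2b lay at the 84.1, 94.5 and 92.9 percentile. Ezh2 was lowest with 1.84, which was 0.501 times the density of its chromosome. The median over the 10 genes was 5.47 against 4.42.

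**Figure D3:**
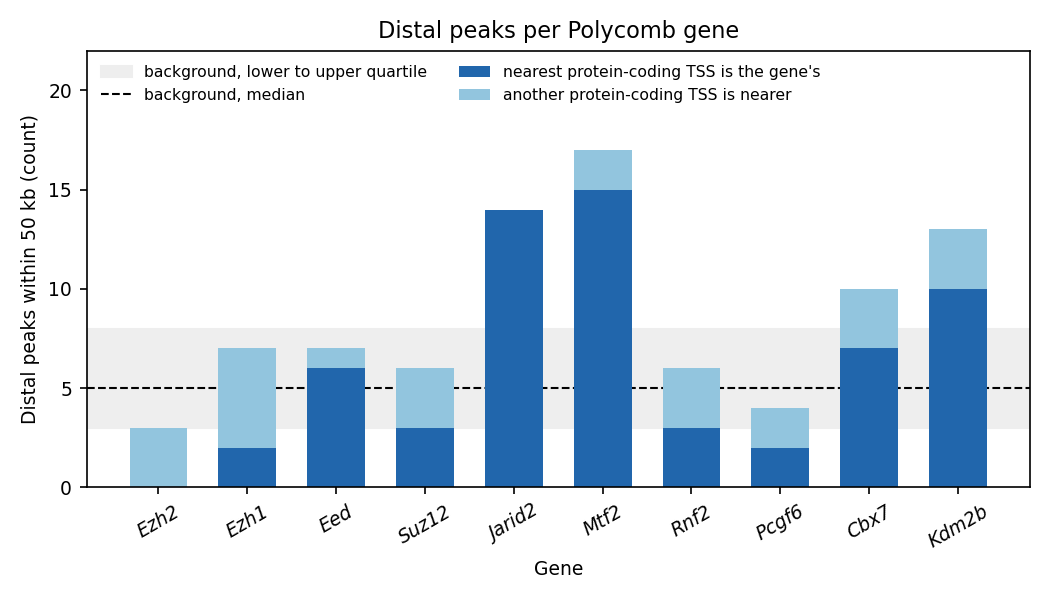
Count of distal peaks (vertical axis) in the 50 kb reach of each Polycomb gene (horizontal axis). Dark blue marks peaks whose nearest protein-coding TSS belongs to the gene and light blue those with a nearer one of another gene, the dashed line is the background median of 5 and the gray band runs from its lower to its upper quartile (3 to 8). Mtf2 (17), Jarid2 (14), Kdm2b (13) and Cbx7 (10) stand above the band, and none of the 3 peaks of Ezh2 is nearest to Ezh2.

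Distance alone does not assign a peak to a gene, and the Polycomb genes differed in how much of their surroundings they shared. For 62 of the 87 distal peaks (71.3%, Wilson 95% interval 61.0 to 79.7) the nearest protein-coding TSS was that of the Polycomb gene, against 50.8% of 95029 pairs of gene and distal peak in the background. The interval counts peaks as independent, although they lie around 10 genes. The Polycomb genes had more annotated starts (median 9.5 against 4), and the part of this in the share was not tested. Jarid2 was nearest for all 14 of its peaks, Mtf2 for 15 of 17, Eed for 6 of 7 and Kdm2b for 10 of 13. Suz12 and Rnf2 were nearest for 3 of 6 each, and Pcgf6 for 2 of 4. Cbx7, with 5 TSS peaks of neighbors in reach, was nearest for 7 of 10. In contrast, 5 of the 7 peaks of Ezh1 lay nearer to other genes, and 6 TSS peaks of neighbors such as Tubg2, Plekhh3, Ramp2 and Vps25 were in its reach. The 3 peaks of Ezh2 all lay beyond its 3′ end and nearer to Cul1. The Ezh2 gene body of 65.2 kb held no distal peak. A peak of 255 bp in an Ezh2 intron, at chr6:47584212-47584466, counted as a TSS peak of Gm44282, which starts 877 bp away, and with TSSs of protein-coding transcripts only Ezh2 had 6 distal peaks. When noncoding genes and pseudogenes were counted as well, 44 of the 87 peaks (50.6%) were nearest to the Polycomb gene, against 35.5%.

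The 14 distal peaks of Jarid2 fell into 2 sets of 7. The upstream set lay in an intergenic stretch 7124 to 49900 bp from the nearest Jarid2 TSS and had widths of 346 to 882 bp. The set in the introns had widths of 229 to 461 bp. The peak 7124 bp upstream, at chr13:44721910-44722791, was the widest of the 14. Jarid2 has a gene body of 192 kb and was the single gene of the 10 with no neighboring TSS peak in reach.

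Mtf2 had many narrow distal peaks. Of its 17, 10 were under 300 bp wide, as were 37.1% of all distal peaks, and the median was 275 bp, where the median of all 89795 distal peaks was 380 bp. A group of 8 lay in the intergenic DNA 5052 to 36903 bp upstream, with widths of 226 to 893 bp, and 7 lay in the gene body, with widths of 180 to 370 bp. Repeat-masked bases made up a median of 42.7% of its distal peaks, and 6 of the 17 were over 50% repeat, against a median of 13.0% and a share of 15.5% in all distal peaks. The part of repeats in this count was not tested.

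Cbx7 showed the opposite shape, with few narrow peaks. Its 10 distal peaks had a median width of 780 bp, and 1 of the 10 was under 300 bp. The 5 in its own introns included those 7225, 12300 and 16804 bp upstream of an internal start, which were 455, 410 and 945 bp wide. Counted in bases instead of peaks, the order at the top therefore turned: distal peaks covered 7902 bp around Kdm2b (13 peaks), 6937 bp around Cbx7 (10 peaks), 6418 bp around Mtf2 (17 peaks) and 6380 bp around Jarid2 (14 peaks). Ezh2 with 1061 bp and Pcgf6 with 971 bp were lowest in both counts.

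Kdm2b had 8 of its 13 distal peaks inside its own gene, in introns between its starts. The widest of the 13, 1265 bp at chr5:122994364-122995628, lay 5173 bp upstream of its first TSS. Of the PRC2 core genes, Eed had 4 distal peaks of 600 to 1218 bp, 17380 to 42394 bp upstream, which all lay in introns of the noncoding gene E230029C05Rik. The 2 peaks of Suz12 in its introns were 254 and 744 bp wide, and a peak of 918 bp lay 18832 bp upstream. The widest distal peak of the 87, with 1777 bp at chr11:101163252-101165028, was in reach of Ezh1 but lay 1184 bp from the start of Plekhh3. Rnf2 had peaks of 489 and 723 bp in its introns, 5185 and 11076 bp past an internal start. Pcgf6 had 4 narrow peaks of 177 to 371 bp.

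**Figure D4:**
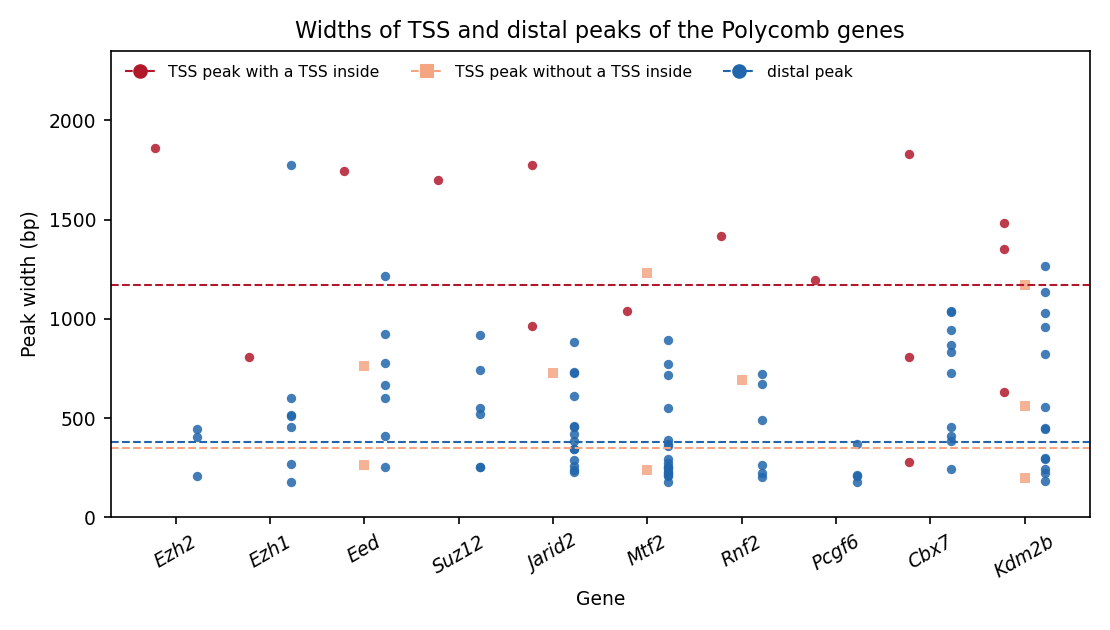
Width in bp of each TSS peak with a start inside (red circles), TSS peak without one (orange squares) and distal peak (blue circles) of the 10 Polycomb genes. Dashed lines are medians of the background in the same colors: 1172 bp, 351 bp and, over all distal peaks, 380 bp. Ezh2, Eed, Suz12, Jarid2 and Cbx7 have TSS peaks of 1700 to 1859 bp, and the distal peaks of Mtf2 crowd at the narrow end.

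As a set, the distal peaks had widths and a GC content close to those of the background. Their median width was 419 bp against 429 bp over the background pairs and 380 bp over all distal peaks. Under 300 bp were 36.8% against 37.1% of all distal peaks, and 8.05% were 1 kb or wider against 7.98% of the background pairs. The median GC content was 47.3% against 47.7% in all distal peaks, and the median CpG ratio was 0.224 against 0.210. The median repeat-masked share was higher, 21.4% against 13.0% in all distal peaks, and 18.4% of the peaks were over 50% repeat against 15.5%. By place, beside the background pairs, 34 of the 87 centres lay in introns of the gene (39.1% against 26.7%) and 2 in its exons (2.30% against 3.95%). Another 18 lay in introns (20.7% against 25.2%) and 5 in exons (5.75% against 8.65%) of other genes, and 28 in intergenic DNA (32.2% against 35.4%).

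The distal peaks of the Polycomb genes lay closer to a start. The median distance was 15939 bp against 21662 bp, and 31 of 87 (35.6%, Wilson 95% interval 26.4 to 46.1) lay within 10 kb against 24.7%. This share was 28.6% in background genes with 8 to 11 TSSs and 32.0% in those with 12 or more. Among the 10 genes, Kdm2b with 19 TSSs had the shortest median distance, 6000 bp, whereas Ezh2 with 12 TSSs had the longest, 30581 bp. Peaks upstream of the nearest own TSS made up 53 of the 87 (60.9%) against 49.1%. That TSS can be an internal start, so some of these peaks lay inside the gene body and not upstream of the gene. Just inside the 50 kb limit was a Jarid2 peak at 49900 bp, 387 bp wide, and just outside was a peak of 257 bp at 50057 bp from Ezh1. At the 1 kb limit, the nearest peaks were a TSS peak of Mtf2 at 902 bp, 1230 bp wide, and a distal peak of Kdm2b at 1169 bp, 446 bp wide.

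**Figure D5:**
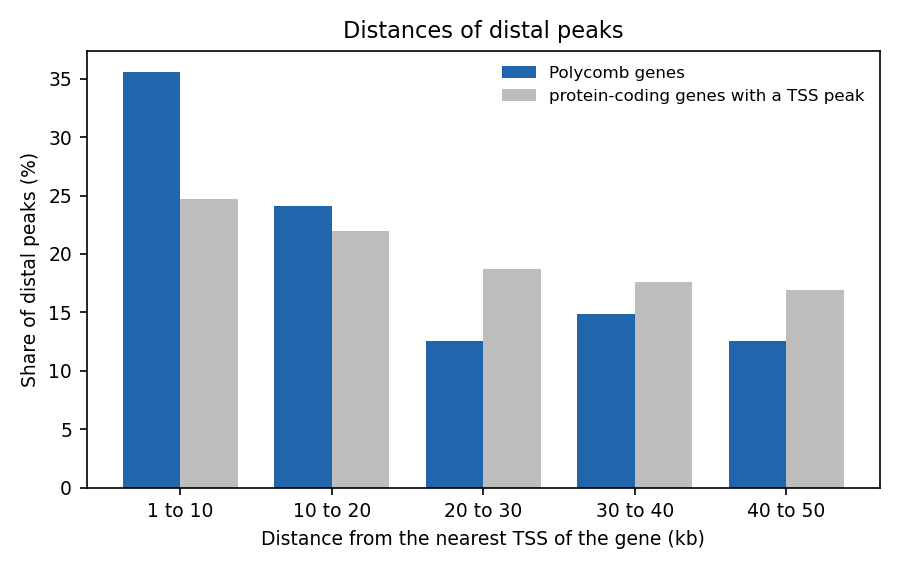
Share of distal peaks, in percent, by distance from the nearest TSS of the gene in kb, for the 87 distal peaks of the Polycomb genes (blue bars) and the 95029 pairs of gene and distal peak of background genes (gray bars). The Polycomb genes have 35.6% of their distal peaks below 10 kb, where the background has 24.7%, and smaller shares than the background from 20 kb on.

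Motifs bound by pluripotency factors were searched on both strands in the 300 bp around each peak centre, and matches are sequence descriptions only. The octamer ATGCAAAT, the core of OCT4 sites, was in 2 of the 87 distal peaks (2.30%) against 2.05% of all distal peaks, 1 near Jarid2 and 1 near Kdm2b. The OCT4::SOX2 composite (CATTGT, 1 base, then the octamer, with up to 2 mismatches, so that it overlaps the octamer) was in 0 of 87, where a count of 0, taken as up to 3 counts, allows a share of up to 3.45%, against 0.496%. The SOX site CATTGTT, which shares letters with the composite, was in 2 of 87 (2.30%), near Eed and Cbx7, against 6.21%. The ESRRB site TCAAGGTCA was in 1 (1.15%), near Jarid2, against 2.14%, and the KLF site GGGTGTGGC in 0 against 1.77%. These shares rest on 0 to 2 peaks each. When whole peaks were searched, the octamer was in 3 of 87 (3.45% against 3.05%), SOX in 2 (2.30% against 9.04%), ESRRB in 2 (2.30% against 3.11%), KLF in 1 (1.15%, against 2331 of 89795) and the composite in 0 (against 0.766%). The 3 sites below are shown because they are the octamer and ESRRB matches in the 300 bp windows of these distal peaks, with 15 bases on each side and the match in capitals.

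Jarid2 octamer, chr13:44705653-44705690, minus strand: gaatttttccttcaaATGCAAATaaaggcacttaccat
Kdm2b octamer, chr5:122991495-122991532, minus strand: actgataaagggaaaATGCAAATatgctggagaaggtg
Jarid2 ESRRB, chr13:44688262-44688300, minus strand: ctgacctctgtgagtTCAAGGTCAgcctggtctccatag

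The Jarid2 octamer lay in the intergenic peak of 726 bp that was 23870 bp upstream, and the ESRRB match in one of 346 bp, 41281 bp upstream. The Kdm2b octamer lay just outside the edge of a peak of 223 bp, 1817 bp upstream of the gene and within an intron of A930024E05Rik, a noncoding gene on the opposite strand.

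The motif of CTCF, the factor that marks many domain borders, was the most frequent of the 13 in distal peaks. It was in 17 of 87 (19.5%, Wilson 95% interval 12.6 to 29.1) against 12.9% of all distal peaks, with up to 1 mismatch allowed, and in 15 of the 17 the first match lay wholly inside the peak. Kdm2b had 5 of these peaks, Mtf2 and Cbx7 had 3 each, Suz12 had 2, and Ezh1, Eed, Rnf2 and Pcgf6 had 1 each. None of the peaks of Ezh2 or Jarid2 had one. Only the first match in each window was compared with repeats. In 7 of the 17 (41.2%) it was repeat-masked, against 19.2% of the first matches in all distal peaks. These 7 held the same 12 letters, CCAGAAGAGGGC, which made up 9.71% of first matches in all distal peaks. Peaks whose first match lay outside repeats made up 11.5% of the distal peaks of the Polycomb genes and 10.4% of all distal peaks. The sites below show the shared letters in capitals at 4 of the genes, and 1 site outside repeats at Cbx7 for comparison.

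Suz12, chr11:80043037-80043078, plus strand: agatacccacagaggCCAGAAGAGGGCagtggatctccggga
Rnf2, chr1:151441111-151441152, plus strand: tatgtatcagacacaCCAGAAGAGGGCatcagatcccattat
Cbx7 repeat, chr15:79941112-79941153, plus strand: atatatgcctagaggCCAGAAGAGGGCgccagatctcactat
Kdm2b, chr5:122894140-122894181, minus strand: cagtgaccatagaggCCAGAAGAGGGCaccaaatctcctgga
Cbx7 outside repeats, chr15:79946182-79946223, plus strand: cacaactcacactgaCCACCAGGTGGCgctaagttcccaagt

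The match near Rnf2 extends past the edge of its peak, as does one near Kdm2b that is not shown.

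The other motifs in distal peaks were SP GGGCGGGG (4 of 87, 4.60% against 3.37%), the E-box CACGTG (5, 5.75% against 4.71%), YY1 AAGATGGC (3, 3.45% against 2.83%), ETS CCGGAAGT (1, 1.15% against 0.508%) and E2F GGCGGGAA (1, 1.15% against 0.868%). NRF1 CGCATGCG and CRE TGACGTCA were in 0 of 87, against 0.160% and 0.297%. The motif of YY1, a homolog of a fly Polycomb recruiter, matched near Mtf2 (2 peaks) and Pcgf6 (1). In the 24 TSS peaks, SP was in 3 (12.5%, Wilson 95% interval 4.34 to 31.0) against 20.8% of TSS peaks of protein-coding genes, and each of the other 12 motifs was in at most 2. When the whole peak was searched, SP was in 8 of the 24 (33.3%) against 41.9%.

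A further 30 genes of PRC2 and PRC1 were taken by name. All 30 had a TSS peak, which 70.8% of protein-coding genes had, and their median of 7 distal peaks equaled that of the 10 genes. Of the 30, 10 had at least 10 distal peaks, against 17.9% of background genes. Auts2 (39), Bcor (19), Aebp2 and Rybp (17 each) had the most, the last 2 being tied, and Scml2 (0), Bmi1 and Pcgf1 (1 each) had the fewest. Bmi1 and Pcgf1 encode PCGF proteins like Pcgf6. The TSS peak nearest to a start was 304 to 2535 bp wide over the 30 genes, with a median of 1276 bp, close to the 1306 bp of the 10.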

How the data were processed

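ATAC-seq reads of the 54 samples were aligned by the authors to mm10 (GRCm38, Ensembl release 87) with STAR 2.6.1c. The authors removed duplicates with Picard and kept reads on the 19 autosomes, X and Y. They called peaks with MACS2 2.1.1.20160309 in its paired-end mode and pooled those of dox-treated OCT4-AID cells with BEDTools. The deposited list holds the chromosome, start and end of each region in bp and no value per sample. Whether peaks were called per library or on pooled replicates is not given in the sources used here. The list held 11 peaks above 5 kb, although the methods describe their removal. Any library can add a region to a merged list or widen one, so counts and widths depend on how many libraries were merged and how deep they were.

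Peaks were compared with GENCODE release M21 TSSs of all transcripts and with the RefSeq GRCm38.p6 sequence, whose lower-case letters mark repeats. A peak within 50 kb of any TSS of a gene was in its reach, so neighbors can share peaks. Percentiles count ties at their midpoint. The CpG ratio is the count of CG times the length over the product of the counts of C and G. Wilson 95% intervals cover counting error only. Python 3.11.15, numpy 2.4.6, scipy 1.17.1 and matplotlib 3.10.9 were used. Gene counts and motif matching were checked on simulated data.

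The 10 genes, the 30 further genes and the 13 motifs were chosen with earlier results of these data known. All 10 genes are described, and of the 30 the rule named those without a TSS peak (there were none) and the 3 with most and with fewest distal peaks (4 for the most, by a tie), and 1 result on the further genes is not reported here. The limits of 10 distal peaks, 3 TSS peaks, 1000 bp and 300 bp, the split by a start inside a peak, the repeat-masked CTCF matches and the check of Pou5f1, Sox2 and Nanog were chosen after values were seen. Alternatives changed the distances, the TSS set, the peak widths kept and the motif window.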

Additional observations from a re-analysis of the deposited data

How the results depend on the processing

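No paired analysis was possible because the list holds no values per sample. With peaks counted within 20 kb, the 10 genes had 52 distal peaks, with a median of 4 against 2 in the background, and 73.08% were nearest to the Polycomb gene among all TSSs, noncoding ones included, in place of 50.6%. Within 100 kb these values were 145, 12.5, 10 and 31.72%. With TSSs of protein-coding transcripts only, 80.21% were nearest to the gene, again in place of 50.6%. Noncoding genes are left out of that setting, so the closer counterpart is the 71.3% among protein-coding TSSs. When each peak was given to its nearest TSS only, the 10 genes had 44 distal peaks, with a median of 2.5 against 1. The other 54 of 66 alternatives for values over the 10 genes or the background stayed within 1.5 times the value given (for shares, within its Wilson interval), as did 54 of 80 for single genes. With TSS peaks taken at the 5′ end of the gene only, however, 9 of the 10 genes had one (Jarid2 had none), and the median width was 1195 bp over these 9 and 1200 bp over the background, so the direction turned. When whole peaks were searched, 16 of the 26 motif shares were at least 1.5 times the value given or no longer 0, and none was lower. Ezh2 had 0 distal peaks under the nearest-TSS rule or with its 5′ end alone, and 6 with protein-coding transcripts only. The background limited to genes with at least 4 TSSs, whose median was 6 distal peaks, was added after the data were seen. Depth per library is unknown, so a missing peak says nothing firm about closed chromatin, and no effect of OCT4 loss or cell cycle phase could be measured.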
